A study of Mus musculus with 40 samples.

Results

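The genotype comparison before any LPS was made between bone marrow-derived macrophages (BMDMs) of 4 WT and 4 Cpeb4-/- mice, one RNA-seq library from each mouse. All 8 mice were adult males of a mixed C57BL/6J and 129 background, so neither group is an inbred strain. Both groups carry this label, but which alleles each mouse held was not tested. The Cpeb4-/- mice lack the gene in the whole body (a total knockout), not in myeloid cells alone, and no library received LPS. Marrow from the femurs was differentiated for 7 days with L-cell conditioned medium, which supplies M-CSF, and the untreated dishes were collected at 0 hr. The same 8 mice also gave libraries at 1, 3, 6 and 9 hr of 10 ng/ml LPS, 40 libraries in all, and these are used here only to follow the genes that differed at 0 hr. Of the 27179 genes in the deposited table, 13095 had a mean rlog of at least 2.32, which is log2 of 5, over the 8 untreated libraries, and these were tested. The rlog is a log2 expression value that is corrected for library size and drawn toward the mean of the gene where counts are low, so a difference in a weakly expressed gene is understated. At the threshold, Gm15854, Dcst2 and Efcab12 lay just outside with a mean of 2.32 each, and 2600006K01Rik, Nos3 and Whrn lay just inside with means of 2.32, 2.33 and 2.33.

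CPEB4 belongs to the cytoplasmic polyadenylation element binding proteins, which bind the 3′-UTR of mRNAs and set the length of the poly(A) tail, and with it translation and stability. In resting macrophages the mRNAs for lysosomal, lipid-handling and pattern recognition proteins are abundant, whereas most cytokine and feedback mRNAs wait for a stimulus such as LPS. A genotype difference at 0 hr is therefore a difference in the starting state of the cells, and the comparison asks how far the transcriptomes of the 2 genotypes had already diverged before stimulation.

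The cells carried the transcripts of macrophages. Of 14 macrophage markers, 13 had a mean rlog over 10, among them Adgre1 (F4/80) at 15.64 ± 0.05 in WT and 15.56 ± 0.06 in Cpeb4-/- (SD, n = 4), and Csf1r, the M-CSF receptor, at 15.71 ± 0.08 and 15.60 ± 0.05. Of 12 mast cell and basophil markers, the proteases Mcpt4, Tpsb2, Tpsab1 and Cma1 were listed at 0 in all libraries and 3 passed the filter, with a back-transformed sum of 130 to 152 in WT and 138 to 139 in Cpeb4-/-. Of 13 erythroid and megakaryocyte markers, Hba-a1, Hbb-bs and Car1 were listed at 0 in all libraries and 5 passed, with a sum of 4160 to 5650 in WT and 3040 to 4620 in Cpeb4-/-, where the one member with a mean rlog over 10 was the platelet chemokine Pf4 (difference −0.32, SE 0.12, limma adjusted p = 0.22). The back-transformed sum over the macrophage markers ran from 895000 to 1040000 in WT and from 785000 to 885000 in Cpeb4-/-. It was led by Lyz2 (lysozyme), at 18.53 ± 0.22 and 18.03 ± 0.20, for which the limma adjusted p was 0.081. The sum over neutrophil markers was 304 to 434 in WT and 506 to 643 in Cpeb4-/-, and the member that differed there was Mmp8, whereas S100a8 and S100a9 had differences of −0.09 and −0.15. The sum over T and NK cell markers was 2500 to 2940 and 3260 to 3750, and Il7r was the member that differed. The sum over stromal and endothelial markers was 293 to 333 and 366 to 383. Of 13 nuclear noncoding and histone RNAs, many of which lack a poly(A) tail, 3 fell and none rose (23.1%, against 0.565% of all genes tested that were called lower), and each call held in 1 or 2 of the 8 fits that left out a mouse. Rpph1, the RNA of RNase P, was at 3.70, 3.94, 3.06 and 4.52 in WT mice 25, 88, 69 and 87 and at 1.93, 2.35, 2.44 and 2.92 in Cpeb4-/- mice 3, 62, 2 and 55 (difference −1.40, SE 0.29, limma adjusted p = 0.049), and the histone genes Hist1h1c and Hist1h2bc differed by −0.38 and −0.35. The part of these sums and RNAs in the results below was not tested, and in bulk libraries fewer cells of a type and less RNA per cell cannot be told apart.

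The targeted gene itself did not separate the untreated groups. Cpeb4 (chr11:31870104-31935635, mm10) had an rlog of 8.13, 7.81, 7.88 and 7.03 in WT mice 25, 88, 69 and 87, and of 7.87, 7.74, 7.42 and 6.88 in Cpeb4-/- mice 3, 62, 2 and 55. The groups overlapped, and the difference of −0.24 (SE 0.25) had a limma adjusted p of 0.61 and a two-sided exact permutation p of 0.429, where 4 against 4 mice allow no p below 0.0286. The difference was −0.466 without WT mouse 87 and −0.039 without Cpeb4-/- mouse 55. At 6 hr of LPS, when WT cells reached 10.45 ± 0.26, the Cpeb4-/- libraries stood at 9.18 ± 0.45 and the groups did not overlap. At 1, 3 and 9 hr the groups overlapped, with differences of 0.37, −0.55 and −0.31 (limma adjusted p = 0.52, 0.36 and 0.46). The table sums reads over the whole gene, so it does not show whether the deleted exons were read at 0 hr.

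At 0 hr, 171 of the 13095 genes (1.31%) passed a limma adjusted p of 0.05, of which 97 (0.741%) were higher and 74 (0.565%) lower in Cpeb4-/- BMDMs. For comparison, the same 13095 genes gave 243 calls (1.86%) after 1 hr of LPS, 467 (3.57%) after 3 hr, 2092 (16.0%) after 6 hr and 997 (7.61%) after 9 hr. Most of the 0 hr differences were small: the median size was 0.536 on the log2 scale, 79 genes differed by less than 0.5 and 15 by more than 1. The values of the 4 mice of one genotype all lay above those of the other in 170 of the 171 genes, Adgre5 being the exception, against 10.5% of all genes tested. All 171 had the same sign in both batches of the experiment. Both counts come from the values by which the genes were called, so they are not separate support for the calls. The number of calls depended on single mice: without Cpeb4-/- mouse 3, 62 or 2 it fell to 43, 57 and 57, without WT mouse 25 or 88 to 85 and 110, and 38 genes were called whichever mouse was left out. WT and Cpeb4-/- mice came from different cages, so cage and genotype cannot be told apart.

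**Figure D1:**
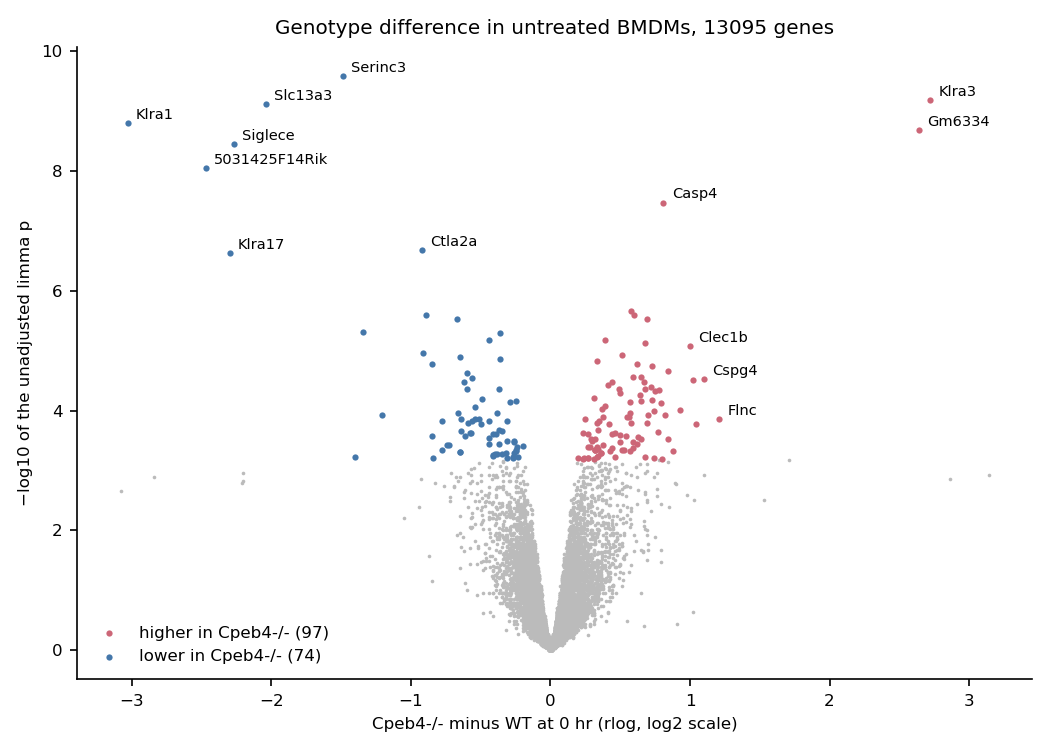
Each point is 1 of 13095 genes, with the Cpeb4-/- minus WT difference of rlog at 0 hr on the x axis (log2 scale) and −log10 of the unadjusted limma p on the y axis. Colours mark the 97 genes called higher and the 74 called lower at an adjusted p of 0.05, and a few genes, such as Klra1 at −3.03 and Klra3 at 2.72, stand far from the main cloud.

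Of the called genes, Klra1 had the largest fall and Klra3 the largest rise. The gene models 5031425F14Rik, a noncoding RNA, and Gm6334 followed at −2.47 and 2.64, and next came Klra17 and Siglece. Klra1, a Ly49 receptor of the natural killer gene complex, had an rlog of 4.40, 4.62, 4.44 and 4.13 in the WT mice and of 1.22, 1.23, 1.73 and 1.29 in the Cpeb4-/- mice (difference −3.03, SE 0.17, limma adjusted p = 5.3e-06). Its neighbour Klra3 showed the reverse order, at 1.23, 1.22, 1.24 and 1.26 in WT and 3.90, 4.20, 3.87 and 3.88 in Cpeb4-/- (difference 2.72, SE 0.14, adjusted p = 3.4e-06). Both genes sat near the bottom of the measured range in the genotype where they were low. Klra17 was lower by 2.30 (SE 0.20, limma adjusted p = 0.00031). The Ly49 genes are close copies of each other, and reads shared between copies could be assigned to the wrong one, so their values are uncertain. Siglece encodes an inhibitory receptor for sialic acids with an ITIM. It stood at 7.67, 7.86, 7.33 and 8.03 in WT and at 5.31, 5.40, 5.55 and 5.52 in Cpeb4-/- mice, a 4.83-fold lower level (difference −2.27, SE 0.13, limma adjusted p = 7.8e-06). Of the 25 Fc receptors and C-type lectins tested, 2 rose and 2 fell (16.0% called, against 1.31% of all genes tested). Here and below, the lists were chosen with earlier results of these data known. A share called above that of all genes is therefore not separate support. Clec1b (CLEC-2, the podoplanin receptor) rose by 1.00 (SE 0.13) and Clec9a, a receptor for actin of dead cells, by 0.88 (SE 0.18), while Clec12a fell by 0.31 (SE 0.06). Clec1b was called whichever mouse was left out, and Clec9a and Clec12a in 1 of the 8 fits that left out a mouse. Outside that list Clec2i fell by 0.74 (SE 0.15). Of 27 adhesion genes 3 fell and none rose (11.1%, against 0.565% of all genes called lower), although 15 of the 27 means were higher and the median was 0.033. The 3 were the tetraspanins Cd37, Cd81 and Cd82, which organize receptors in the plasma membrane. Cd82 was at 11.58, 11.61, 11.53 and 11.73 in WT and at 11.32, 11.39, 11.34 and 11.38 in Cpeb4-/- mice (difference −0.26, SE 0.05, limma adjusted p = 0.037), and Cd81 fell by 0.26 (SE 0.05). The calls of Cd81 and Cd82 each held in 2 of the 8 fits that left out a mouse, and that of Cd37 in all 8.

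The smallest limma p of all genes was that of Serinc3, a multipass membrane protein known to restrict retroviral infectivity. It was at 14.43, 14.54, 14.22 and 14.32 in WT and at 12.94, 12.92, 12.90 and 12.77 in Cpeb4-/- mice (difference −1.49, SE 0.07, 2.82-fold lower, limma adjusted p = 3.4e-06). Slc13a3, the sodium-coupled transporter for dicarboxylates such as succinate, was at 6.84, 7.11, 7.30 and 7.12 in WT and at 5.16, 4.96, 5.07 and 5.03 in Cpeb4-/- mice (difference −2.04, SE 0.10, 4.10-fold lower, limma adjusted p = 3.4e-06). For both genes the gap between the groups was several times the range within either group. Further falls of more than 0.5 included Pkig, an inhibitor of protein kinase A (−0.89, SE 0.10), Ctla2a and Ctla2b, inhibitors of cathepsin-like proteases and close copies of each other (−0.92, SE 0.08, and −0.60, SE 0.09), Sulf2, an extracellular heparan sulfatase (−0.65, SE 0.09), and Cmah, which makes the sialic acid Neu5Gc (−0.56, SE 0.10).

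Fgfr1, Cspg4, Flnc, Mamdc2 and Spint1 were among the 15 largest named rises. Fgfr1, the FGF receptor, was at 7.05, 7.50, 7.83 and 7.15 in WT and at 8.46, 8.57, 8.24 and 8.35 in Cpeb4-/- mice (difference 1.02, SE 0.15, 2.03-fold higher, limma adjusted p = 0.011). WT mice spread over a wider range than Cpeb4-/- mice for this gene, but the groups did not overlap. Cspg4 (the NG2 proteoglycan) rose by 1.10 (SE 0.16), Flnc (filamin C) by 1.21 (SE 0.21), Mamdc2 by 1.04 (SE 0.19) and Spint1, an inhibitor of serine proteases, by 0.93 (SE 0.16). The WT mean of Flnc, 2.28 ± 0.41, lay below the filter of 2.32. Both components of caveolae that passed the test were higher, with Cav1 up by 0.62 (SE 0.12) and Cavin1 by 0.60 (SE 0.07). These 2 genes were grouped after their values were seen.

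**Figure D2:**
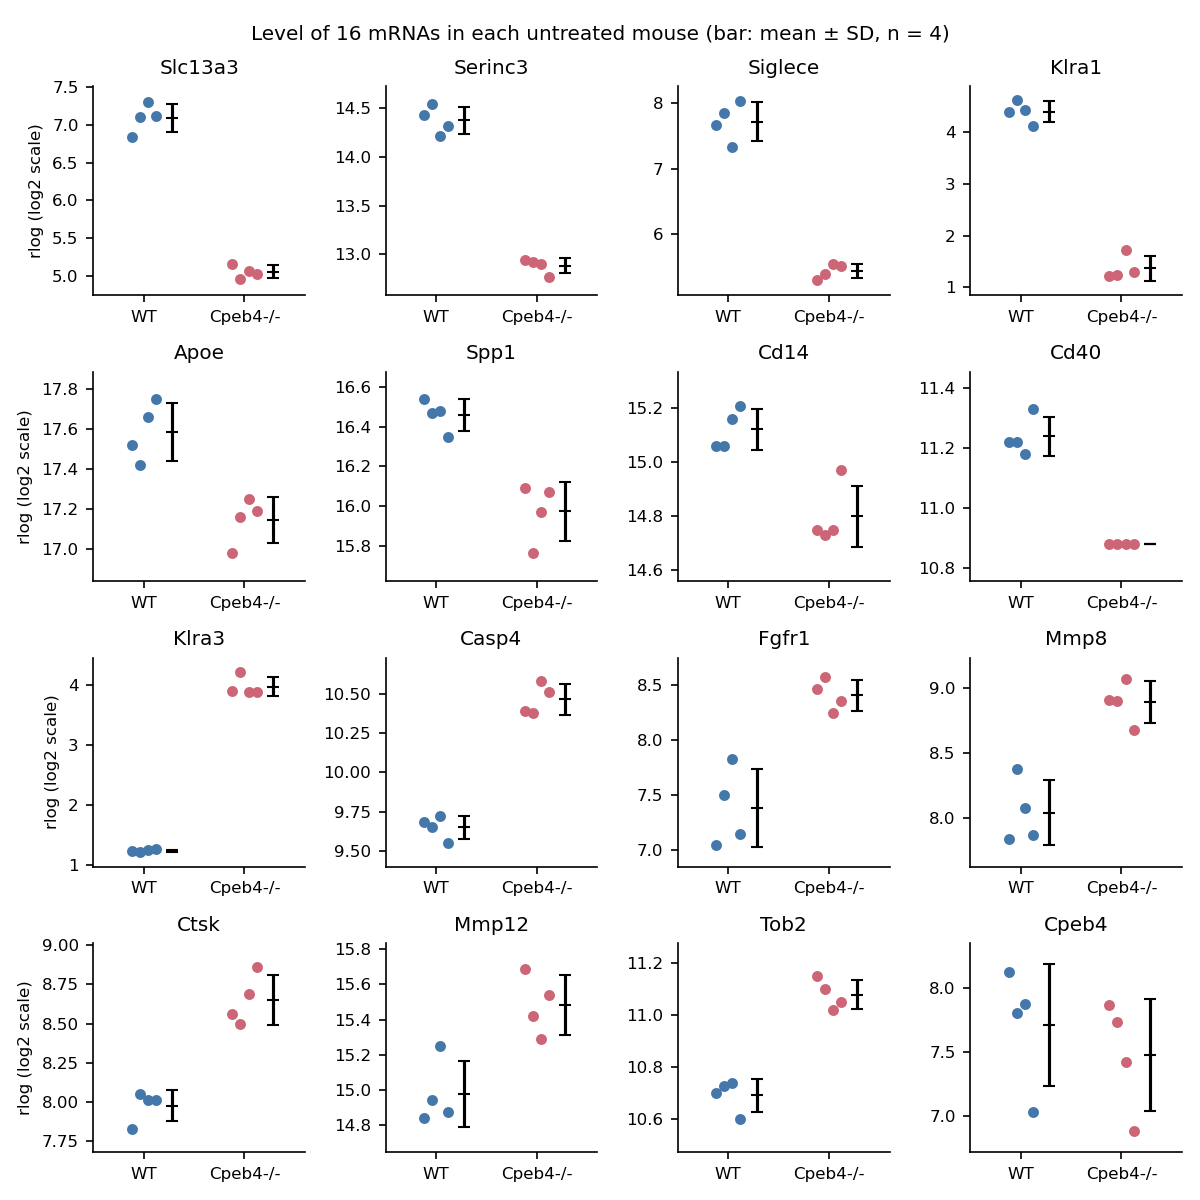
Each point is the rlog (y axis, log2 scale) of an mRNA in 1 untreated mouse, with WT in blue and Cpeb4-/- in red, and bars give the mean ± SD of 4 mice. The groups stand apart for 15 of the mRNAs shown, and overlap for Cpeb4.

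Of 27 genes for extracellular matrix and its proteases, 4 rose, 1 fell and 22 did not pass (18.5% called, against 1.31% of all genes tested), and the median of the list was 0.062. The collagenase Mmp8 was at 7.84, 8.38, 8.08 and 7.87 in WT and at 8.91, 8.90, 9.07 and 8.68 in Cpeb4-/- mice (difference 0.84, SE 0.12, limma adjusted p = 0.0094). Macrophage elastase Mmp12 was at 14.84, 14.94, 15.25 and 14.87 in WT and at 15.69, 15.42, 15.29 and 15.54 in Cpeb4-/- mice (difference 0.51, SE 0.10, adjusted p = 0.044). WT mouse 69 and Cpeb4-/- mouse 2 nearly met for Mmp12, and the call held in 1 of the 8 fits that left out a mouse. Plau (urokinase) rose by 0.34 (SE 0.06) and Tgfbi by 0.25 (SE 0.04). The member that fell was Spp1 (osteopontin), at 16.54, 16.47, 16.48 and 16.35 in WT and at 16.09, 15.76, 15.97 and 16.07 in Cpeb4-/- mice (difference −0.49, SE 0.08, adjusted p = 0.016).

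Of 9 osteoclast markers tested, 3 rose and none fell at this threshold (33.3% called, against 1.31% of all genes tested). A higher mean in Cpeb4-/- was seen in 8 of the 9 (88.9%, against 51.6% of all genes tested). The median difference was 0.187, against 0.006 over all genes tested. Of the 3 called, Ctsk alone was called whichever mouse was left out. Ctsk, the collagen-degrading cathepsin K, was at 7.83, 8.05, 8.01 and 8.01 in WT and at 8.56, 8.50, 8.69 and 8.86 in Cpeb4-/- mice (difference 0.68, SE 0.09, limma adjusted p = 0.0048). Acp5 (tartrate-resistant acid phosphatase) rose by 0.44 (SE 0.08) and Atp6v0d2, a subunit of the proton pump, by 0.32 (SE 0.06). Itgb3, also a marker of this list, had a difference of −0.45 (SE 0.12) with an adjusted p of 0.091, and Nfatc1, the transcription factor of osteoclast differentiation, one of 0.01 (SE 0.06). Of 38 lysosomal genes 3 rose (7.89% called, against 1.31% of all genes tested), namely Ctsk, Atp6v0d2 and Gpnmb (0.34, SE 0.07). The other 35 did not pass, and the median of the list was −0.019. The calls of Atp6v0d2 and Gpnmb each held in 1 of the 8 fits that left out a mouse.

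Among 19 LXR targets and genes of cholesterol efflux 2 fell (10.5%, against 1.31% of all genes called), and both were apolipoproteins of the same cluster on chromosome 7. Apoe was at 17.52, 17.42, 17.66 and 17.75 in WT and at 16.98, 17.16, 17.25 and 17.19 in Cpeb4-/- mice (difference −0.44, SE 0.09, limma adjusted p = 0.039), and Apoc2, the activator of lipoprotein lipase, fell by 0.84 (SE 0.18, adjusted p = 0.049). The call held in 1 of the 8 fits that left out a mouse for Apoe and in 2 for Apoc2. The remaining 17 genes of the list did not pass, and its median was 0.018. Fabp4, the fatty acid binding protein of adipocytes and macrophages, rose by 0.65 (SE 0.09) and Pla2g7, which hydrolyses platelet-activating factor, by 0.69 (SE 0.08). None of 24 cholesterol synthesis genes passed, and 4 of them had an unadjusted limma p under 0.05, which 17.6% of all genes tested had. Of 21 complement and coagulation genes, the neighbours F7 and F10, which encode coagulation factors VII and X, rose by 0.68 (SE 0.10) and 0.36 (SE 0.07), and the other 19 did not pass. These 2 calls were 9.52% of the list, against 1.31% of all genes tested. The F7 call held in 6 and the F10 call in 1 of the 8 fits that left out a mouse.

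Of 31 TLR4 pathway genes 1 fell (3.23% called, against 1.31% of all genes tested). This was Cd14, the co-receptor that hands LPS to TLR4. Its values were 15.06, 15.06, 15.16 and 15.21 in WT and 14.75, 14.73, 14.75 and 14.97 in Cpeb4-/- mice (difference −0.32, SE 0.07, a 1.25-fold lower level, limma adjusted p = 0.046). The groups did not overlap, but the call held in 1 of the 8 fits that left out a mouse. Of 18 inflammasome genes 1 rose (5.56%, against the same 1.31%), the noncanonical LPS sensor Casp4. It was at 9.68, 9.65, 9.72 and 9.55 in WT and 10.39, 10.38, 10.58 and 10.51 in Cpeb4-/- mice (difference 0.81, SE 0.06, 1.76-fold higher, limma adjusted p = 5.6e-05). Casp4 was called whichever mouse was left out. Among 14 genes of MHC class II presentation, Ciita, the master coactivator of class II genes, rose by 0.73 (SE 0.10), while H2-Oa, a chaperone subunit, fell by 0.85 (SE 0.16) and the costimulatory receptor Cd40 by 0.36 (SE 0.04). H2-Oa was called in 2 of the 8 fits that left out a mouse, and Ciita and Cd40 in all 8. The 3 called members were 21.4% of the list, against 1.31% of all genes tested, and the other 11 did not pass. The median of the list was 0.14, and 9 of the 14 (64.3%) had an unadjusted limma p under 0.05, against 17.6% of all genes tested. The class II chains H2-Aa, H2-Eb1 and H2-Ab1 had differences of 0.55 (SE 0.16), 0.53 (SE 0.17) and 0.46 (SE 0.16), with groups that overlapped and limma adjusted p values of 0.12, 0.16 and 0.20. None of 28 inflammatory cytokines and chemokines and none of 21 negative feedback regulators passed the limma test. An unadjusted p under 0.05 was reached by 2 and 3 of them, 7.14% and 14.3%, and their median differences were −0.023 and 0.018. The feedback mRNAs Dusp1, Il1rn, Socs1, Socs3, Tnfaip3 and Zfp36 had differences of −0.06, 0.10, −0.08, 0.06, 0.08 and 0.09, with limma adjusted p values from 0.33 to 0.57. The groups did not overlap in 5 of the 21 regulators (23.8%, against 10.5% of all genes tested), 3 higher, with Socs3 and Tnfaip3, and 2 lower. They did not overlap in 4 of the 28 cytokines and chemokines (14.3%), 3 higher and 1 lower. Some members of these lists hardly varied between mice. Il6 was at 7.73 ± 0.01 in WT and 7.74 ± 0.03 in Cpeb4-/-, and Nos2 at 8.11 ± 0.01 and 8.13 ± 0.01. The rlog draws values with low counts toward the mean of the gene. The lack of calls therefore does not show that such members were equal at 0 hr.

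The TOB adaptors of mRNA deadenylation were both higher in Cpeb4-/- cells. Tob1 and Tob2 bind poly(A)-binding protein and the CCR4-NOT complex, which shortens poly(A) tails. Tob2 was at 10.70, 10.73, 10.74 and 10.60 in WT and at 11.15, 11.10, 11.02 and 11.05 in Cpeb4-/- mice (difference 0.39, SE 0.05, limma adjusted p = 0.0046), and was called whichever mouse was left out. Tob1 was at 8.37, 8.37, 8.51 and 8.32 in WT and at 8.71, 8.70, 8.69 and 8.78 in Cpeb4-/- mice (difference 0.33, SE 0.06, limma adjusted p = 0.025). The Tob1 call held in 2 of the 8 fits that left out a mouse. Tob1 and Tob2 were the 2 genes called among 32 of the CPEB and cytoplasmic polyadenylation list (6.25%, against 1.31% of all genes tested). In this list 23 means were higher (71.9%, against 51.6% of all genes tested) and the median was 0.114. The paralogs Cpeb2 and Cpeb3 had differences of 0.37 (SE 0.09, limma adjusted p = 0.076) and 0.35 (SE 0.08, adjusted p = 0.058). For both paralogs all 4 Cpeb4-/- values lay above all 4 WT values, but neither passed. Cpeb1 differed by −0.14 (SE 0.15, adjusted p = 0.60). Among 12 genes for proteins that bind AU-rich elements, all 12 means were higher in Cpeb4-/-, with a median of 0.089. None of these passed, and 2 had an unadjusted limma p under 0.05 (16.7%, against 17.6% of all genes tested). The groups did not overlap in 1 of the 12 (8.33%, against 10.5% of all genes tested). By the median deviation of the list, WT mice 25 and 69 (0.024 and 0.025) stood above Cpeb4-/- mice 2 and 55 (0.009 and 0.017).

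The mRNAs that the study found to co-immunoprecipitate with CPEB4 in untreated BMDMs, in libraries other than these, were called about as often as any gene. Of 1154 that were tested, 14 (1.21%) passed, 6 higher and 8 lower, against 1.31% of all genes. Their median difference was 0.043, against 0.006 over all genes, and 760 means (65.9%) were higher in Cpeb4-/-, against 51.6% of all genes. The groups did not overlap in 152 of them (13.2%, against 10.5% of all genes), 116 higher and 36 lower. Serinc3 (−1.49), Pkig (−0.89) and Tob2 (0.39) were members that were called whichever mouse was left out. Cav1, Plau, Rin2, Rpia and Tbc1d2b were the other members that rose, and Igfbp4, Hist1h1c, Clec12a, Cd82, Tmem189 and Lpcat2 the others that fell.

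Interferon-stimulated genes were lower in the mean in Cpeb4-/- cells without passing the test one by one. Their products block viral replication, and resting macrophages express them at a basal level through tonic type I interferon. Of 54 genes, 53 had a lower mean, with a median difference of −0.164 on the log2 scale, and none passed an adjusted p of 0.05 with limma. An unadjusted p under 0.05 was reached by 30 of the 54 (55.6%), against 17.6% of all genes tested. The count was 53 as well after median centring or quantile normalization, and the median lay between −0.207 and −0.128 when single mice were left out. The groups did not overlap in 4 genes, Iigp1, Oasl2, Mx1 and Adar, which is 7.41% of the list and below the 10.5% of all genes tested. The largest mean differences were those of Ifi44 and Ifit3, both −0.39 (SE 0.10), where Ifit3 had a limma adjusted p of 0.092. The median deviation of the 54 genes from their mean over the 8 libraries was 0.056, 0.151, −0.021 and 0.103 in WT mice 25, 88, 69 and 87, and −0.153, −0.123, −0.071 and 0.047 in Cpeb4-/- mice 3, 62, 2 and 55. Cpeb4-/- mouse 55 thus stood above WT mouse 69, and the groups overlapped.

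These genes are known for the interferon-stimulated response element in their promoters, and the sequences printed here show the element in the members with the largest mean differences that hold it. In the RefSeq promoters (GRCm38.p6, the same build as mm10, from 250 bases before to 50 after each start), GAAANNGAAA was found on either strand in 25 of the 41 interferon-stimulated genes with a promoter in the table, which is 61.0%, and in 3.95% of the 10114 tested genes with a promoter. It was found in 3.44% of all 32851 promoters. The windows are written 5′ to 3′ on the strand that reads GAAANNGAAA, with the match in capitals. The first, of Ifit3, lies at chr19:34583364-34583391, that of Bst2 at chr8:71537578-71537605, that of Oas1g at chr5:120887607-120887634, that of Isg15 at chr4:156200866-156200893 and that of Oas3 at chr5:120777716-120777743. The gene is on the plus strand for Ifit3, where the match is on the opposite strand, and on the minus strand for the others, where the match is on the strand of the gene.
Ifit3: ccagaagagGAAAGTGAAActtaccact
Bst2: caggaaaatGAAACTGAAAggctgcagt
Oas1g: cgggaaatgGAAACTGAAAatctacttc
Isg15: aaggaaaccGAAACAGAAAatagctctg
Oas3: cagggaggaGAAAACGAAAgtgaaggga
The mean differences of these 5 genes were −0.39, −0.37, −0.29, −0.22 and −0.20, and none passed the limma test. The element was also found in members with a difference near 0, such as Gbp2 (−0.01) and Gbp7 (0.03). A link between the element and the genotype difference was not tested. Ifit3b and Oas1a, close copies of Ifit3 and Oas1g, hold the same windows and are not printed, and reads shared between copies could be assigned to either.

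No gene was called among those of the mitochondrial genome or among the nuclear genes of the respiratory chain. All 11 mitochondrially encoded genes tested had a higher mean in Cpeb4-/- cells (median 0.208, from 0.07 for ND6 to 0.41 for COX3), whereas 31 of 35 nuclear genes of oxidative phosphorylation had a lower mean (median −0.108). The mitochondrial share of the back-transformed total was 1.01%, 0.97%, 1.13% and 0.84% in WT mice 25, 88, 69 and 87 and 1.24%, 1.04%, 1.13% and 1.18% in Cpeb4-/- mice 3, 62, 2 and 55, so the groups overlapped. Among cytosolic ribosomal proteins 44 of 57 means were lower (median −0.078) and among factors of ribosome biogenesis 25 of 30 were higher (median 0.059), and none of these genes passed. An unadjusted limma p under 0.05 was reached by 6 of the 11 mitochondrially encoded genes (54.5%) and 7 of the 30 factors of ribosome biogenesis (23.3%), against 17.6% of all genes tested. It was reached by 3 of the 35 genes of oxidative phosphorylation (8.57%) and 3 of the 57 ribosomal proteins (5.26%), both below that share. The median of each of these lists kept its sign after median centring, after quantile normalization and without any single mouse. WT mouse 87 stood apart for ribosomal proteins, with a median deviation of 0.309 against −0.171 to 0.057 in the other WT mice and −0.134 to 0.095 in Cpeb4-/- mice. For oxidative phosphorylation it was at 0.241, against −0.075 to 0.08 in the other WT mice and −0.099 to 0.034 in Cpeb4-/- mice. The same library had the lowest correlation with its own genotype (median r 0.995), and without it 143 genes were called and the median of the ribosomal proteins was −0.005. The median of oxidative phosphorylation without this mouse was −0.048, with 27 of 35 means lower.

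**Figure D3:**
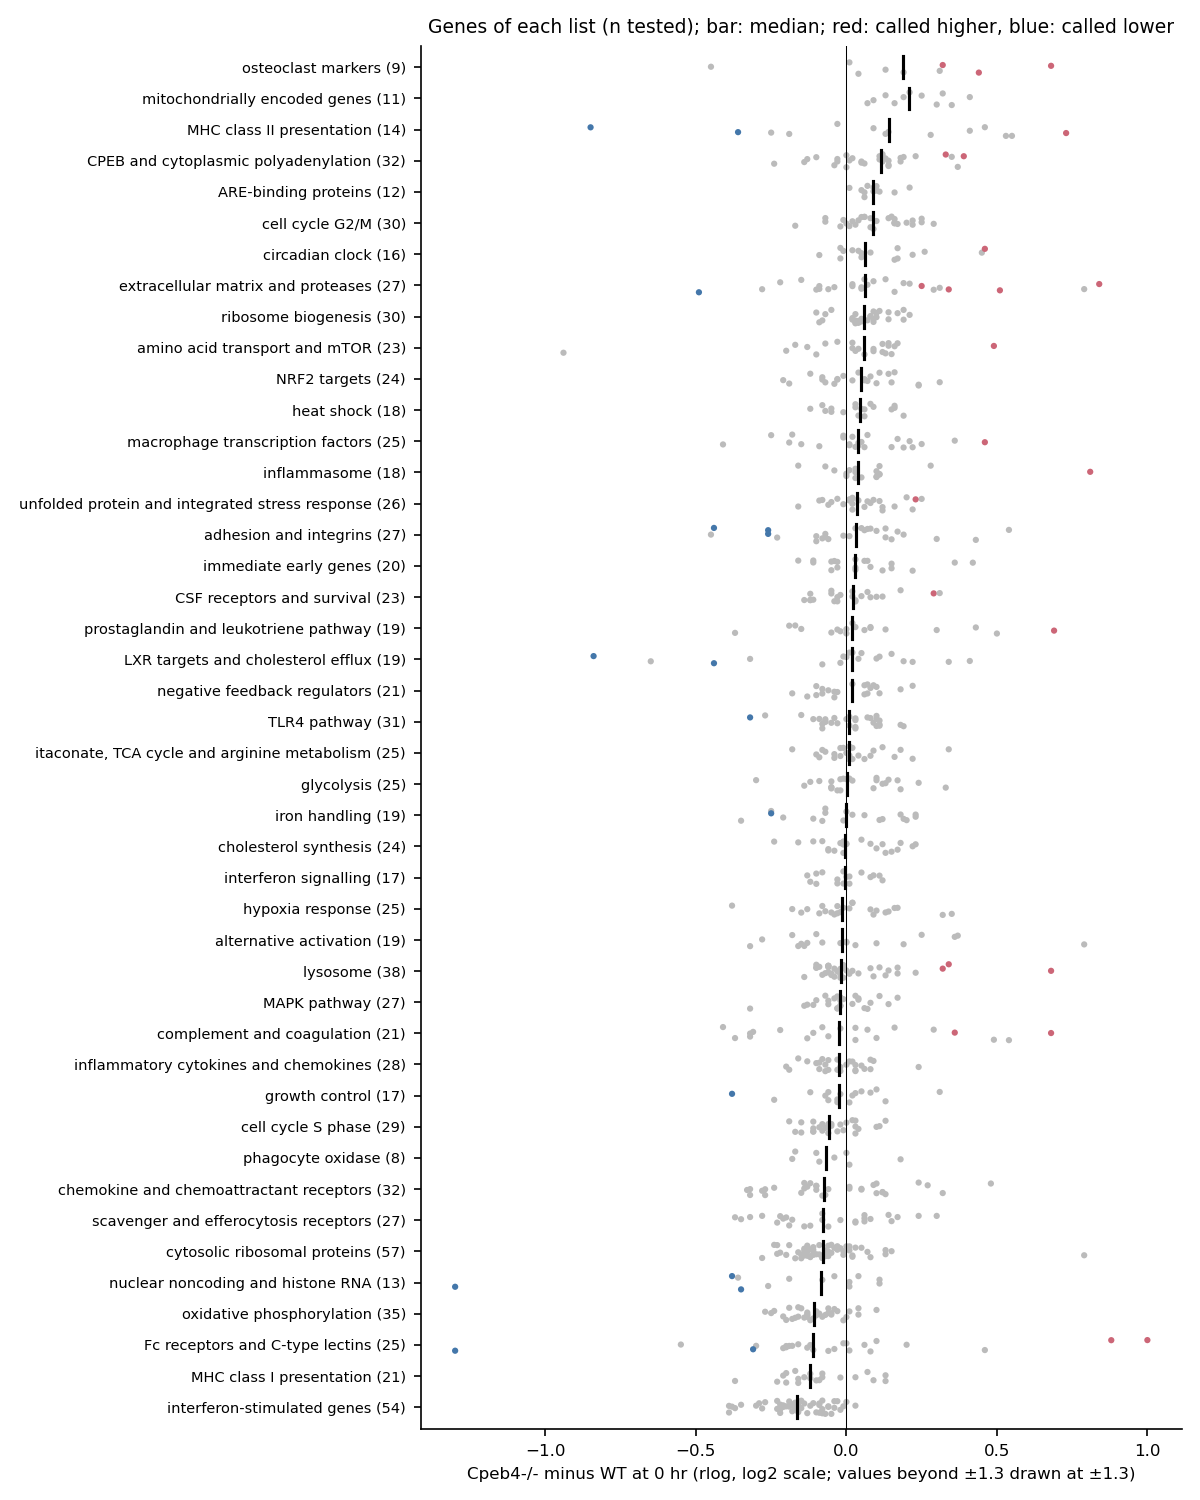
Each point is a gene of the list named on the y axis (number tested in brackets), placed on the x axis by its Cpeb4-/- minus WT difference at 0 hr (rlog, log2 scale, drawn at ±1.3 where beyond it), and black bars are the median of each list. Most lists centre near 0, the 54 interferon-stimulated genes lie to the left with a median of −0.164, and the 11 mitochondrially encoded genes lie to the right with a median of 0.208.

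Several stretches of the genome held runs of called genes, defined as at least 4 with gaps of at most 5 Mb. Each run starts and ends at a called gene, which by itself raises the share called within it. The spread along the genome was not tested. A stretch of chromosome 2 (chr2:163602285-167661544, mm10) held 12 called genes among 56 tested, or 21.4%, and all 12 were lower in Cpeb4-/- cells. In order, they included Ttpal, Serinc3, Pkig, Pabpc1l, Dbndd2, Cd40, Slc13a3, Trp53rka, Sulf2, 5031425F14Rik and Tmem189. These share no single function, since among them are transporters, a kinase inhibitor, a costimulatory receptor, a sulfatase and a noncoding RNA. On chromosome 6 (chr6:127125162-130386874) 9 of 30 tested genes, or 30.0%, were called, 3 higher and 6 lower, and 7 of them were the lectin receptors of the natural killer gene complex, next to Ccnd2 (cyclin D2, −0.38, SE 0.06) and the noncoding BC064078 (−1.34, SE 0.16). Of all 9 runs of at least 4 called genes, the other 7 held smaller shares and calls in both directions. They were on chromosome 13 (4 of 24, 16.7%, and 4 of 25, 16.0%), chromosome 14 (5 of 49, 10.2%), chromosome 7 (4 of 50, 8.00%, with Siglece and Cd37, the latter at −0.44, SE 0.06), chromosome 11 (4 of 54, 7.41%, and 8 of 150, 5.33%) and chromosome 15 (4 of 142, 2.82%). Over whole chromosomes the share called was 2.58% on chromosome 6, 2.09% on chromosome 2 and 1.80% on chromosome 7, and 16 of the 21 calls on chromosome 2 and 15 of the 18 on chromosome 7 were lower. On chromosome 11, which carries Cpeb4, 13 genes (1.20%) were called, and the nearest lay 26.1 Mb from Cpeb4. The mice are of mixed background and the alleles they carried in these stretches were not tested.

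**Figure D4:**
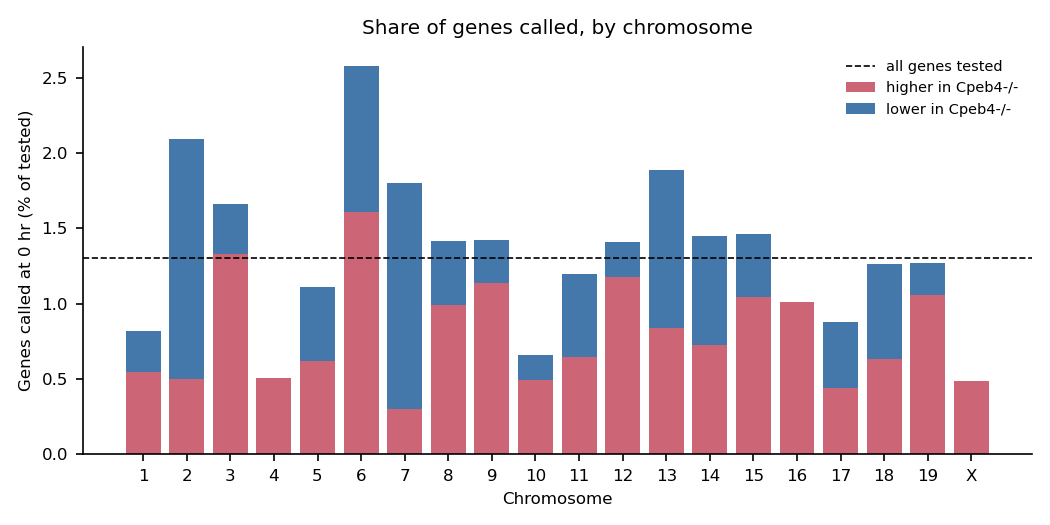
Bars give the genes called at 0 hr as a percentage of those tested on each chromosome, split into higher (red) and lower (blue) in Cpeb4-/-, and the dashed line is the 1.31% over all genes. Chromosomes 6, 2 and 13 stand highest, at 2.58%, 2.09% and 1.89%.

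The libraries of the same mice after LPS showed which of the 0 hr genes were called again at later times. Because the mice are shared, these times are not independent evidence of a 0 hr difference. A missing call does not show that a difference was gone. That of Clec9a, for example, was 0.82 at 1 hr (limma adjusted p = 0.063), against 0.88 at 0 hr. Of the 171 genes, 107 (62.6%) were also called at 1 hr and 79 (46.2%) at 3 hr, all in the same direction. At 6 hr 85 (49.7%) were called, 82 of them in the same direction, and at 9 hr 79 (46.2%), 77 of them in the same direction. These shared genes made up 44.0% of the calls at 1 hr but 4.06% of those at 6 hr. In all, 31 genes were called in the same direction at all times, among them Siglece, Slc13a3, Serinc3, Sulf2, Cd37, Spp1, Tob2, Pla2g7, Mmp8, Mmp12, Cavin1 and Clec1b, and 24 were called at no time after LPS, among them H2-Oa, Clec9a, Ccnd2, Atp6v0d2, Dnmt3a, Soat1 and Anxa1.

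For 22 genes (0.168%), the difference at 0 hr departed from the mean difference after LPS at a limma adjusted p of 0.05, and 9 of these were called at 0 hr. The gap in Slc13a3 widened: WT cells went from 7.09 ± 0.19 at 0 hr to 9.94 ± 0.28 at 9 hr, and Cpeb4-/- cells from 5.06 ± 0.08 to 6.21 ± 0.11, so that the difference went from −2.04 to −3.73 (departure 0.92, adjusted p = 0.019). Slc7a7, an exchanger for cationic amino acids, was higher in Cpeb4-/- at 0 hr (0.49) and 1 hr (0.52) and had a difference of −0.23 at 6 hr (departure 0.41, limma adjusted p = 0.019). Plekhf1 was lower at 0 hr (−0.50) and had a difference of 0.58 at 9 hr (departure −0.91, adjusted p = 0.02). The difference in Klra1 went from −3.03 at 0 hr to −0.27 at 9 hr (departure −1.47, adjusted p = 0.00081), while WT cells went from 4.40 ± 0.20 to 1.69 ± 0.32, against 1.42 ± 0.13 in Cpeb4-/- cells at 9 hr. Siglece was lower in Cpeb4-/- at all times, with a difference of −2.27 at 0 hr and −3.61 at 9 hr (departure 0.35, limma adjusted p = 0.92). At 9 hr WT cells were at 10.48 ± 0.33 and Cpeb4-/- cells at 6.87 ± 0.05.

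**Figure D5:**
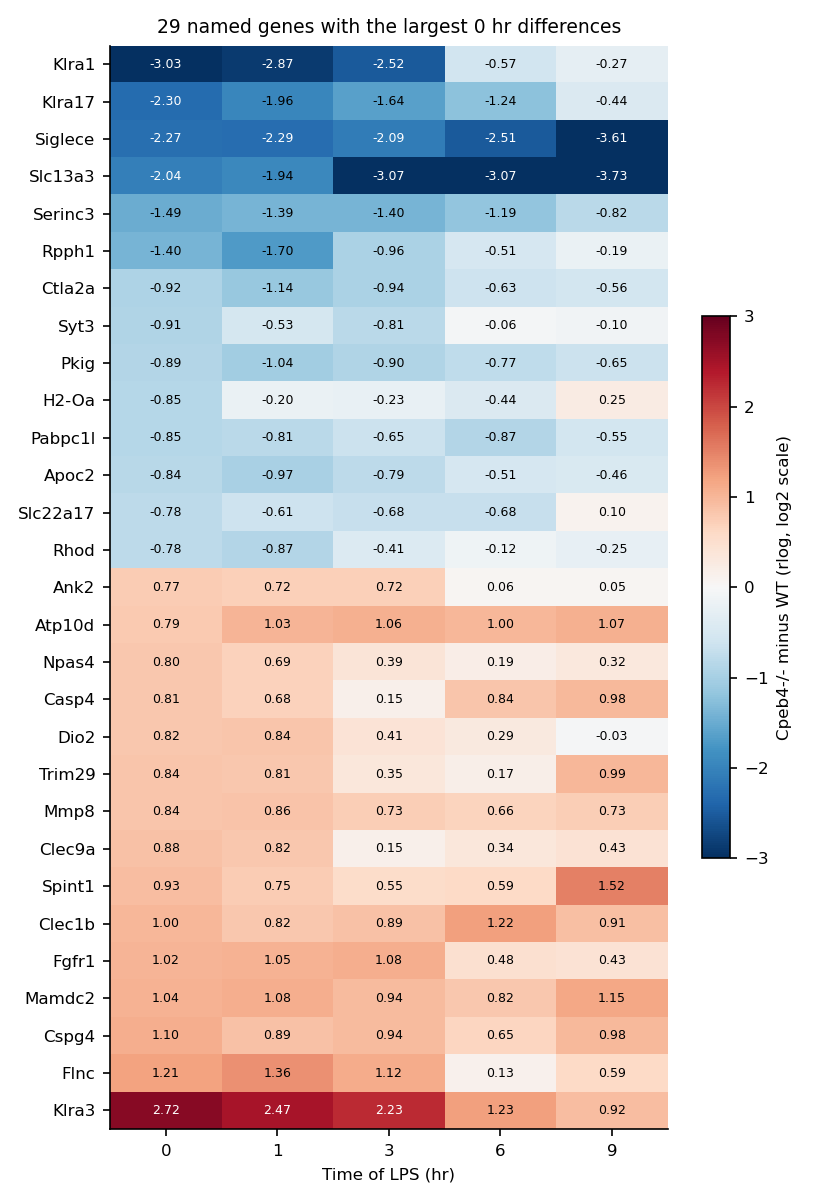
Colours and numbers give the Cpeb4-/- minus WT difference (rlog, log2 scale) of the genes with the 15 largest named rises and 14 of the 15 largest named falls at 0 hr, in rows, for each time of LPS in hr, in columns. Siglece and Slc13a3 remain low at all times, at −3.61 and −3.73 by 9 hr, whereas Klra1, Syt3 and Rhod approach 0.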

How the data were processed

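RNA-seq was made from poly(A) RNA of BMDMs of 4 WT and 4 Cpeb4-/- mice, and the 8 untreated libraries entered the comparison. Per the labels and the methods, the authors aligned reads to mm10 with STAR 2.3.0e, counted them per gene with featureCounts and applied the rlog transformation of DESeq2, and the values they deposited are log2 expression normalized to library size. The read totals cannot be read from these values, so no counting interval was computed, and precision is given by the spread between mice. The median SE of a difference was 0.0746.

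Here, the 13095 genes whose mean rlog reached 2.32 were tested in R 4.3.3 by limma 3.58.1 with a mean-variance trend in eBayes. P-values were adjusted over all of them after Benjamini and Hochberg, and a call is an adjusted p under 0.05. Samples were grouped by genotype and treatment as labelled, and the labels give 1 mouse for each library. No pair of libraries held identical values, and 0 value columns were left unused. The departure of the 0 hr difference from the mean difference after LPS was a contrast in 1 limma fit over 40 libraries. The 17 alternatives covered other filters, scalings, variance priors, batch as covariate, fits of all 40 libraries, and each mouse left out.

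Gene positions and promoters come from RefSeq (GRCm38.p6), matched by Entrez ID for 25271 of 27179 genes. The gene lists were written from general knowledge, except the CPEB4-associated mRNAs, a list of the study from other libraries, of which only the membership was used. The members and lists were chosen with earlier results of these data known. Named are the CPEB genes and 6 feedback mRNAs, the 15 largest rises and falls with groups that do not overlap, up to 5 unnamed models, up to 4 called members of each list, called genes in runs of at least 4 with gaps of at most 5 Mb, and abundant cell type markers, of which 1 gene is not reported here. Genes outside this rule (Il7r, Cav1, Fabp4, Acp5, Plekhf1, Adgre5 and those named only within a list or a count) were chosen after their values were seen. The pairing was checked over the 40 libraries: after removal of group means, libraries of the same mouse had a median r of 0.285 (69 of 80 pairs over 0.1). The script was tested on simulated data. Figures were drawn with matplotlib 3.10.9.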

Additional observations from a re-analysis of the deposited data

Results flagged for a closer look

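Of 198 groups of 4 mice examined for a value far from the rest, 8 had one, where chance gives about 1 in 20. These were WT mouse 69 for Abhd15 (7.74, against 7.89 to 7.90 in the others) and for Slc7a7 (9.48, against 9.63), WT mouse 87 for Gm6334 (1.77, against 1.52 to 1.54), Cpeb4-/- mouse 3 for Socs3 (11.06, against 10.91), Cpeb4-/- mouse 55 for Cd14 (14.97, against 14.73 to 14.75) and for Tmem189 (11.79, against 11.81), Cpeb4-/- mouse 62 for Klra3 (4.20, against 3.87 to 3.90) and Cpeb4-/- mouse 2 for Klra1 (1.73, against 1.22 to 1.29). Each of these rests on a narrow spread of the other 3 mice, and in none did the mouse cross to the side of the other genotype.

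Among the named genes, 7 had a difference at 0 hr that departed from the mean difference after LPS by the limma contrast. The departure (0 hr minus mean after LPS) was −1.65 for 5031425F14Rik (adjusted p = 0.00016), −1.47 for Klra1 (0.00081), −0.98 for Klra17 (0.034) and −0.30 for Ttpal (0.042), each lower in Cpeb4-/- at 0 hr by more than after LPS. It was 0.92 for Slc13a3 (limma adjusted p = 0.019) and 0.84 for BC064078 (0.02), which were lower by more after LPS, and 0.41 for Slc7a7 (0.019), which was higher at 0 hr. For 5031425F14Rik and Klra1 the WT level fell to 1.64 ± 0.13 and 1.69 ± 0.32 by 9 hr, near the lowest values of the gene in either genotype.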

How the results depend on the processing

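The number of genes called at 0 hr was 171 (97 higher, 74 lower). Fits of all 40 libraries gave 336 (188 and 148) without a replicate block and 430 (233 and 197) with the mouse as a replicate block, and testing all 20784 genes without a filter gave 50 (22 and 28). Leaving out 1 mouse at a time gave 43 to 163 calls, 23 to 102 higher and 20 to 61 lower, and the lowest of these counts was that without Cpeb4-/- mouse 3. Batch as covariate (218), no trend (124), a mean rlog of at least 5 (134), median centring (155), quantile normalization (158) and robust eBayes (161) stayed within 1.5 times. The 22 departures from the difference after LPS became 56 with the replicate block and 5 to 19 without single mice, 5 of them without WT mouse 25. The replicate numbers differ between the genotypes, so the block pairs times of a mouse and not WT with Cpeb4-/-. The Cpeb4 difference was below 0 and did not pass in any setting (−0.466 to −0.039). Among the other named genes the one change of sign was Cpeb1, at 0.012 without Cpeb4-/- mouse 62 (lowest −0.234 without Cpeb4-/- mouse 2). Calls lost in named genes numbered 21 to 55 when a mouse was left out, 63 without a filter and 1 with the replicate block. With 4 mice a genotype, the smallest differences called were 0.20 in size (Evl and Lpcat2), and depth cannot be read from rlog values.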

Other observations

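Another 13 genes differed by more than 1 on the log2 scale between the group means without being called, and in 8 of them the groups overlapped. They were looked at after their values were seen. In several, the mice of one genotype fell into separate levels. Hal and Amdhd1, neighbouring genes on chromosome 10 for enzymes of histidine breakdown, moved together: Hal was at 8.40 and 8.19 in WT mice 25 and 87, at 5.12 and 5.36 in WT mice 88 and 69, and from 9.08 to 10.02 in Cpeb4-/- mice. Amdhd1 was at 3.01 and 3.07 in WT mice 25 and 87, at 1.64 and 1.67 in WT mice 88 and 69, and from 2.97 to 4.57 in Cpeb4-/- mice. Neo1 (neogenin, chromosome 9) split the WT mice in the same way, with 5.01 and 5.08 in mice 25 and 87, 3.56 and 3.29 in mice 88 and 69, and 5.75 to 6.18 in Cpeb4-/- mice.

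Single mice departed from their genotype in other genes. Stard13, on chromosome 5, was at 3.88 in WT mouse 69, close to the 3.23 to 4.05 of the Cpeb4-/- mice, and at 7.86, 7.02 and 6.90 in WT mice 25, 88 and 87. Plekha7, an adherens junction protein, was at 4.06 in WT mouse 87 and at 6.10 to 7.08 in the other WT mice, against 3.64 to 4.18 in Cpeb4-/- mice. The noncoding RNA 5730416F02Rik on the X chromosome was at 7.32 to 7.49 in Cpeb4-/- mice 3, 62 and 2 but at 3.55 in Cpeb4-/- mouse 55, next to 3.19 to 3.46 in WT. Rims2 was at 7.61 and 7.34 in Cpeb4-/- mice 3 and 55 and at 7.21 in WT mouse 87, and at 4.09 to 4.80 in the other 5 mice. The alleles of these genes in each mouse were not tested.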
